A study of Mus musculus with 12 samples.

Results

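RNA from mouse neocortex at embryonic day 16 was compared between 4 libraries labelled homozygous Nfia knockout and 2 wild-type libraries of the same line, 6 of the 12 libraries in the series. Both groups carry the strain label Nfia tm1Rmg on C57BL/6, where tm1 denotes a targeted germline allele, so that wild-type and knockout embryos differ in whether the allele is present. The tissue was microdissected, and the labels give neither the sex of the embryos nor whether each library came from a separate one. The submitters' notes on housing name the Nfia allele in both places where 2 lines are meant, and the lines were therefore read from titles and strain. For the labelled Nfia knockouts, the 2 wild-type libraries of the Nfib line (strain label Nfib tm1Rmg on C57BL/6, same age and tissue) were used only to check direction. The 4 Nfib knockout libraries, set against these wild types, enter for the level of Nfib and in a comparison at the end of the text.

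The table holds 1 value per gene and group, in FPKM (fragments scaled to transcript length and library size), averaged by the authors. No value per library was used, so no spread or depth can be given, and p-values may measure technical spread only. Of 23352 rows, 12384 reached 1 FPKM in at least one group after 6 rows listed at 0 in one group and above 50 FPKM in another were dropped, among them Eef1a1 and Tuba1a. Differences below are of log2(FPKM + 0.1), labelled knockout minus wild type, which understates changes of low genes. A gene is called higher or lower, or is said to have risen or fallen, where the q-value in the authors' deposited table was 0.05 or less. An error implied by the deposited p-value, the size of the deposited fold divided by the normal deviate of that p, was, as a median over rows that were not called and in log2 units, 0.23 at 1 to 5 FPKM, 0.16 at 5 to 20 FPKM and 0.13 at 20 to 100 FPKM.

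Nuclear factor I (NFI) proteins are DNA-binding transcription factors that bind, as dimers, a palindrome made of TTGGC and GCCAA with 5 bases between them, and also a single arm of it. In the developing forebrain, Nfia and its paralogues are expressed in radial glia and in neurons. They are known for promoting the exit of progenitors from self-renewal and the onset of gliogenesis. Mice without Nfia lack most of the corpus callosum.

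Nfia itself was not called lower in the libraries labelled knockout. It had 28.2 FPKM in the labelled knockouts, against 33.7 FPKM in their own wild types and 24.3 FPKM in the Nfib-line wild types. The difference was -0.25 with an implied error of 0.13 (q = 0.477 in the authors' deposited table), and the labelled knockouts lay above the other wild types. A targeted allele can leave transcript from outside the deleted part, and the deleted part is not given in the labels. A gene-level FPKM does not separate such transcript from an intact one. In the Nfib knockouts, Nfib had 9.12 FPKM against 134 FPKM in the Nfib-line wild types. Why Nfia was not called lower was not tested. The libraries are therefore called labelled knockouts throughout, and every direction below rests on the label.

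Nfix, the paralogue known for later neural stem cell differentiation, fell, with 108 FPKM in the labelled knockouts against 165 FPKM in their wild types and 163 FPKM in the Nfib-line wild types (difference -0.61). Nfib had 142 FPKM against 190 FPKM (difference -0.42, q = 0.117 in the authors' deposited table) and was close to the Nfib-line wild types at 134 FPKM. Nfic had 5.06 FPKM against 6.16 FPKM and was not called.

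**Figure D1:**
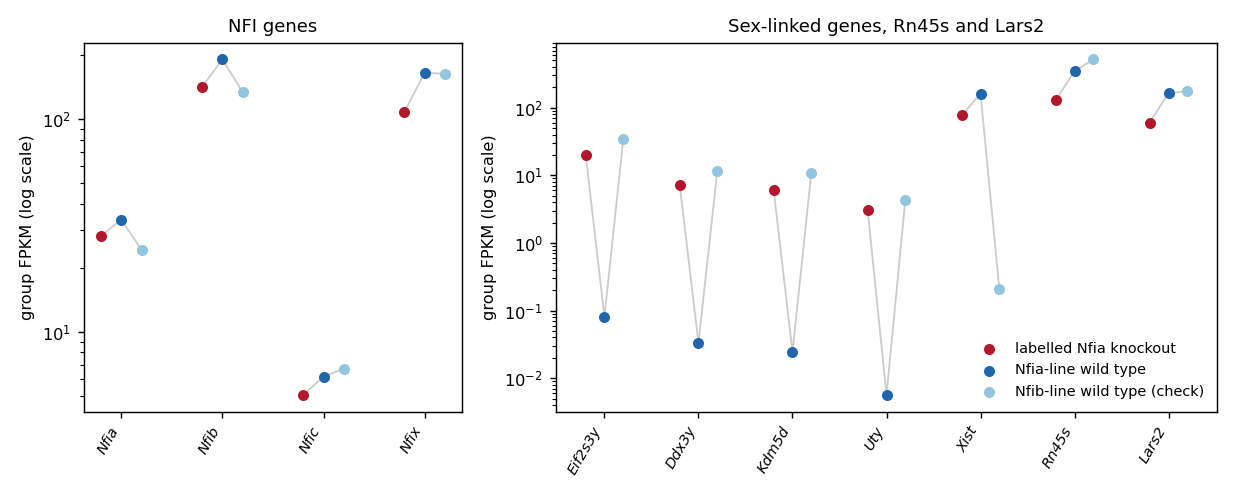
Group FPKM on a log axis for the 4 NFI genes (left) and for sex-linked genes, Rn45s and Lars2 (right), with the labelled Nfia knockout drawn left of the Nfia-line wild type and the Nfib-line wild type. Points are the authors' group averages without error bars. Eif2s3y stands at 20.2 FPKM in the labelled knockouts and 0.081 FPKM in their wild types, while Nfia stands at 28.2 and 33.7 FPKM.

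The tissue carried the defining genes of neocortex in every group. Emx1, a factor of dorsal telencephalon, had 25.2 FPKM in the labelled knockouts against 31.5 FPKM in their wild types. Tbr1 of early-born projection neurons had 148 against 155 FPKM. No gene of the midbrain and hindbrain list reached 1 FPKM. Sex-linked genes set the groups apart. Eif2s3y, on the Y chromosome, had 20.2 FPKM in the labelled knockouts, 0.081 FPKM in their wild types and 34.1 FPKM in the Nfib-line wild types. Xist, which is transcribed from the inactive X chromosome, had 77.0, 161 and 0.207 FPKM in the same order of groups. The wild types of the Nfia line thus had almost no Y-linked transcript and the labelled knockouts an intermediate level of both. Embryo sex and label cannot be told apart in this comparison. The ribosomal transcript Rn45s fell, with 130 FPKM in the labelled knockouts against 346 FPKM in the Nfia-line and 517 FPKM in the Nfib-line wild types, and Lars2 fell too, with 60.4 FPKM against 165 and 175 FPKM. How ribosomal RNA content bears on the results was not tested.

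Of 12359 tested rows, 478 (3.87%) were called, 332 higher (2.69%) and 146 lower (1.18%). The counts of each list below are to be read beside these shares, and no list was tested as a set. At 2-fold or more, 97 were higher (0.785%) and 19 lower (0.154%). The median difference was 0.83 for the called higher and -0.58 for the called lower genes, against 0.0030 over all passing rows. Calls were commoner among low genes, at 6.81% of rows with a mean of 1 to 2 FPKM and 1.36% at 100 FPKM or more. Of the called rows, 75 passed the filter in one group only, so a difference was built into their selection. Such members of a list are named beside its counts, and their calls add nothing to them. The authors' deposited table has 232 of the calls at its smallest q of 0.00286, where p is at its floor of 5e-05, so that q does not rank these genes.

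**Figure D2:**
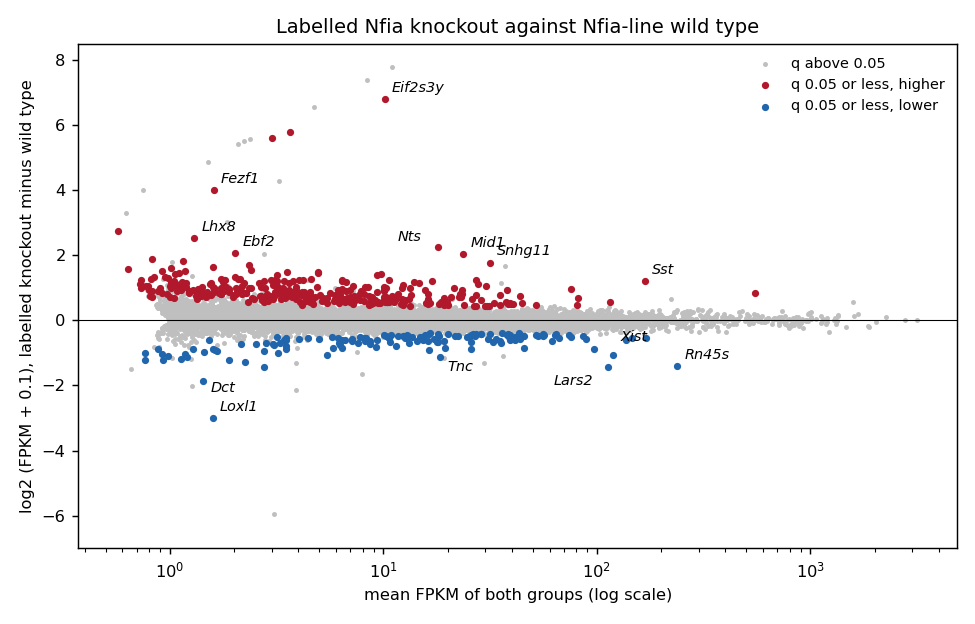
Log2 difference, labelled knockout minus Nfia-line wild type (y), against the mean FPKM of both groups on a log axis (x), for the 12384 passing rows. Red points are the 332 genes called higher, blue points the 146 called lower and grey points the rest. Fezf1 and Nts are among the highest and Loxl1 the lowest of the called points off the sex chromosomes.

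Against the Nfib-line wild types, 289 of the 332 genes called higher (87.0%) kept their direction, with a median difference of 0.38. Of the genes called lower, 136 of 146 (93.2%) did, with a median of -0.46. Among all passing rows the shares were 62.3% of those higher and 66.0% of those lower, and both comparisons share the knockout libraries, so part of this is built in. The Nfia-line wild types lay below the Nfib-line wild types for 300 of the 332 genes called higher (90.4%) and for 4429 of all 6284 higher rows (70.5%). The median of that wild-type difference on the log2 scale was -0.48 over the 332 genes and -0.09 over the 6284 rows. Choosing genes for a low Nfia-line wild-type value fixes part of this order. Where a call is large against one wild-type group and small or opposite against the other, both values are given below.

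**Figure D3:**
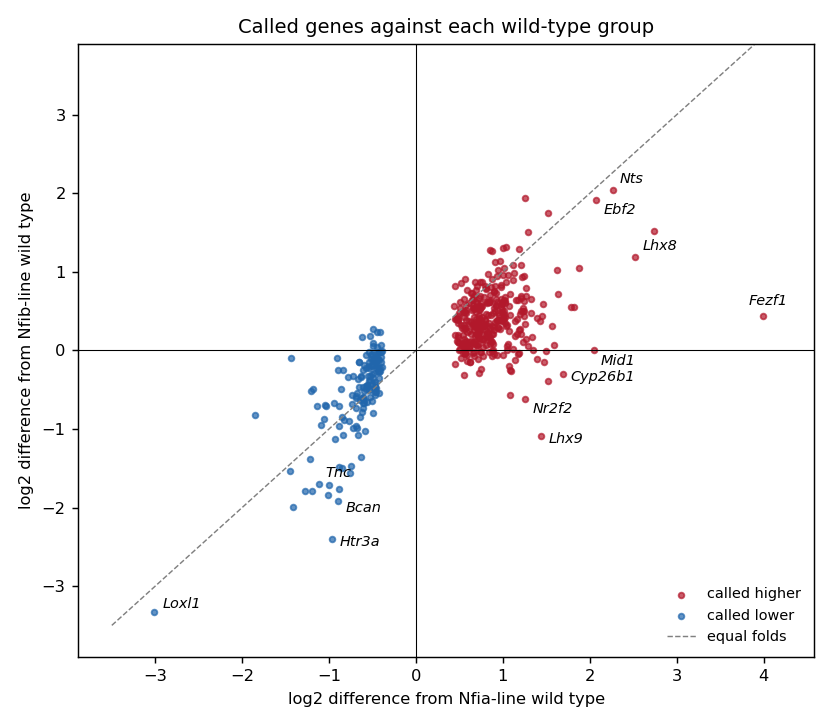
Log2 difference of the labelled knockout from the Nfia-line wild types (x) and from the Nfib-line wild types (y) for 474 called genes; the sex-linked Ddx3y, Eif2s3y, Kdm5d and Xist are left off. Loxl1 and Nts lie near the dashed line of equal differences, while Lhx9 and Nr2f2 fall below 0 on the y axis.

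Some of the sharpest changes were of a similar size against both wild-type groups. Nts, the gene of the peptide neurotensin, had 29.8 FPKM in the labelled knockouts, against 6.12 and 7.20 FPKM in the Nfia-line and Nfib-line wild types (difference 2.26, implied error at most 0.56). Loxl1, a lysyl oxidase that cross-links elastin, had 0.271 FPKM against 2.90 and 3.62 FPKM (difference -3.01); it passed the filter through the wild types alone. Ebf2, a transcription factor of Cajal-Retzius cells, had 3.34 FPKM against 0.718 and 0.812 FPKM, and passed the filter through the labelled knockouts alone. The wild-type groups were close to each other for these genes. Fezf1, a factor of the diencephalon and olfactory system, had the largest rise off the sex chromosomes, with 3.11 FPKM against 0.101 FPKM, but the Nfib-line wild types had 2.26 FPKM. Fezf1 also passed the filter through the labelled knockouts alone, so part of its rise was built in. Mid1, on the X chromosome, had 38.0 FPKM against 9.15 FPKM in the Nfia-line wild types and 38.0 FPKM in the Nfib-line wild types, so its own wild types stood apart from both other groups.

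The lateral ganglionic eminence gives rise to striatal projection neurons and the medial one to cortical interneurons, which reach the neocortex by migration. Of 24 passing factors of the lateral eminence and striatum, 8 rose and none fell (median 0.40, and 0.02 against the Nfib-line wild types). Isl1, which specifies striatal neurons, had 7.31 FPKM in the labelled knockouts, against 2.60 and 4.84 FPKM in the Nfia-line and Nfib-line wild types. Zfp503 had 4.16 FPKM against 1.91 and 3.01 FPKM, and Ebf1 had 9.73 FPKM against 4.64 and 4.96 FPKM. For Six3 the direction turned: 2.999 FPKM stood against 1.37 FPKM in the Nfia-line and 3.46 FPKM in the Nfib-line wild types. Summed over the list, the level was 286 FPKM in the labelled knockouts, 239 FPKM in their wild types and 269 FPKM in the Nfib-line wild types.

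Of 15 factors of the medial and caudal eminences, 3 rose and none fell. Both Nkx2-1 and Lhx8 passed the filter through the labelled knockouts alone. Nkx2-1, the determinant of the medial eminence, had 1.86 FPKM against 0.457 and 1.24 FPKM, and Lhx8, a factor of cholinergic neurons, had 2.28 FPKM against 0.314 and 0.948 FPKM. Nr2f2, a factor of caudal eminence interneurons, had 14.98 FPKM against 6.22 FPKM in the Nfia-line and 23.0 FPKM in the Nfib-line wild types, a rise against one and a lower value against the other. In bulk RNA, more cells of a type and more RNA per cell cannot be told apart. The part of ventral tissue in the dissected samples was not tested.

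Of 17 genes of striatal signalling and GABA synthesis, 7 rose and 1 fell, and 6 of the 7 were also higher than the Nfib-line wild types. The 9 not called ran from -0.27 (Ppp1r1b) to 0.77 (Drd2), with Drd1a at -0.10 and Pde10a at 0.07. Adora2a, the adenosine receptor of indirect-pathway striatal neurons, had 5.74 FPKM against 3.33 and 4.95 FPKM. Gad1, which makes GABA, had 29.1 FPKM against 16.5 and 25.0 FPKM. Cnr1, the cannabinoid receptor, fell: 46.7 FPKM against 64.6 and 64.9 FPKM.

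Of 17 neuropeptide and secreted synaptic protein genes, 7 rose and none fell (median 0.47, and 0.05 against the Nfib-line wild types). Sst, somatostatin of interneurons, had 235 FPKM in the labelled knockouts, against 101 and 148 FPKM. Tac1, the gene of substance P, had 14.2 FPKM against 5.20 and 10.9 FPKM. Pnoc, prepronociceptin, had 1.55 FPKM against 0.680 FPKM in the Nfia-line and 1.86 FPKM in the Nfib-line wild types, and Penk had 4.05 FPKM against 2.16 and 4.26 FPKM. Pnoc and Cbln4 passed the filter through the labelled knockouts alone. Among the peptide receptor genes 2 of 11 rose, Npy2r at 1.26 FPKM against 0.677 and 0.887 FPKM, and Tacr1 at 1.03 FPKM against 0.574 and 0.643 FPKM. Both passed through the labelled knockouts alone, so these rises were built in by the filter.

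**Figure D4:**
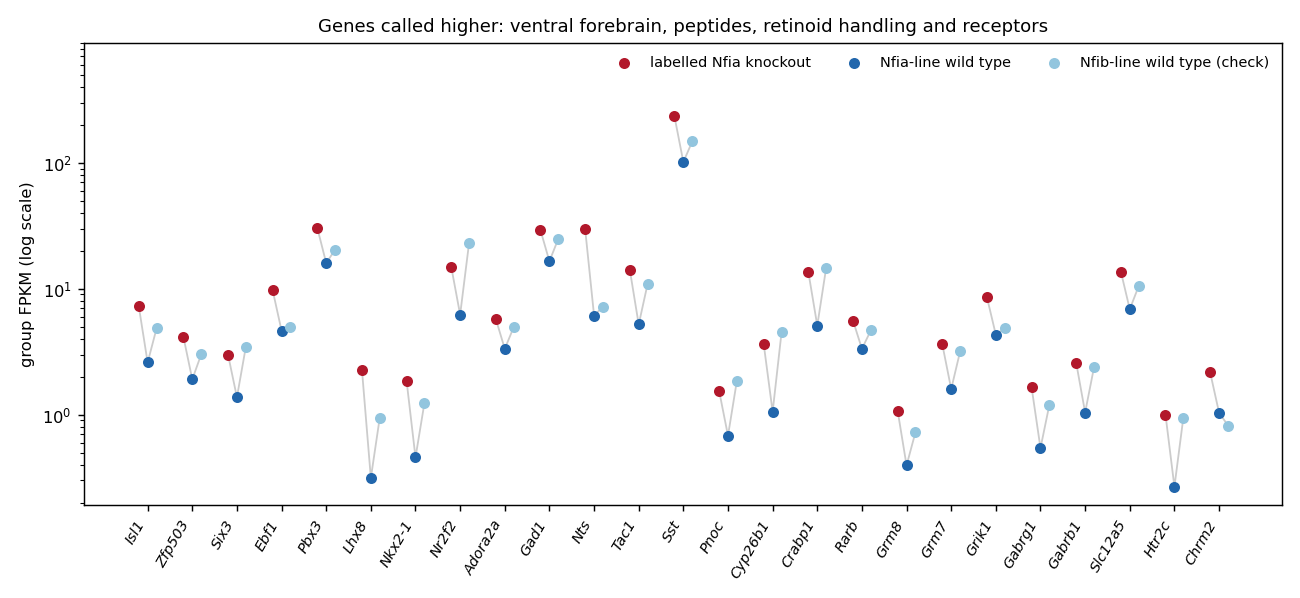
Group FPKM on a log axis for 25 genes called higher, in the order labelled Nfia knockout, Nfia-line wild type, Nfib-line wild type for each gene, without error bars. The labelled knockout is above the Nfia-line wild type in each; for Six3, Nr2f2, Pnoc, Cyp26b1 and Crabp1 the Nfib-line wild type lies higher still.

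Of 22 glutamate receptor subunits, 7 rose and none fell, and all 7 were also higher than the Nfib-line wild types (medians of the list 0.33 and 0.22). Grm8 had 1.07 FPKM against 0.395 and 0.726 FPKM, Grik1 had 8.56 FPKM against 4.31 and 4.86 FPKM, and Grin3a had 10.3 FPKM against 5.47 and 5.79 FPKM. Of 19 genes of GABA and glycine receptors and chloride transport, 6 rose and none fell, and all 6 were higher than the Nfib-line wild types as well. Slc12a5, the chloride exporter KCC2 that makes GABA inhibitory, had 13.7 FPKM against 6.87 and 10.5 FPKM. Gabrg1 had 1.66 FPKM against 0.542 and 1.20 FPKM, while Gabrb1 at 2.58 FPKM was close to the Nfib-line wild types at 2.39 FPKM, and 1.04 FPKM in its own. Grm8 and Gabrg1 passed through the labelled knockouts alone.

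Of 17 monoamine and acetylcholine receptors, 6 rose and 1 fell. Of the 6, Htr2c, Htr7 and Chrm3 passed the filter through the labelled knockouts alone, and Htr3a, which fell, through the wild types alone. The list median of 0.49 turned to -0.18 over members at 5 FPKM or more. Chrm2, a muscarinic receptor, had 2.17 FPKM against 1.04 and 0.819 FPKM. Htr2c had 1.00003 FPKM against 0.267 FPKM, and 0.946 FPKM in the Nfib-line wild types. The serotonin-gated channel subunit Htr3a, which marks caudal interneurons, fell: 0.946 FPKM stood against 1.94 FPKM in the Nfia-line and 5.41 FPKM in the Nfib-line wild types. Sst of medial interneurons and Nkx2-1 of the medial eminence itself rose. Nkx2-1 and Htr3a each passed the filter in one group only, so their opposite directions were built in. Lhx6 and Sox6, of the medial and caudal eminence list, were not called (differences 0.28 and 0.02). Nr2f2 of the caudal eminence rose against its own wild types.

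Of 38 potassium channel subunits, 5 rose and 3 fell, all in the same direction against the Nfib-line wild types; Kcnh1 and Kcnj6, both higher, passed through the labelled knockouts alone. Kcnd2, an A-type channel, had 8.996 FPKM against 5.44 and 7.63 FPKM, and Kcnj10, the glial potassium channel, fell with 1.88 FPKM against 3.17 and 3.81 FPKM. Of 32 sodium, calcium and HCN channel subunits, 4 rose and none fell. Cacna1g, a T-type calcium channel, had 9.18 FPKM against 5.52 and 8.22 FPKM. Presynaptic release genes had 6 higher of 36, postsynaptic scaffold genes 3 higher of 27, and neither list had a lower call. Syn2, a synapsin of synaptic vesicles, had 28.7 FPKM against 17.5 and 22.5 FPKM.

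Retinoic acid patterns the forebrain, CYP26 enzymes degrade it and CRABP proteins bind it in the cell. Of 13 genes, 5 rose and 1 fell, with a median of 0.41 against the Nfia-line wild types and -0.10 against the Nfib-line wild types. Cyp26b1 had 3.63 FPKM against 1.05 and 4.51 FPKM, and Crabp1 had 13.6 FPKM against 5.09 and 14.7 FPKM. Rarb, a retinoic acid receptor, had 5.59 FPKM against 3.33 and 4.67 FPKM, above both. Dhrs3, which turns retinaldehyde back to retinol, fell: 1.11 FPKM against 2.69 and 4.11 FPKM, below both.

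Upper-layer neurons are born last and include callosal neurons of the neocortex. Of 17 of their genes, 8 fell and none rose, and all 8 were also below the Nfib-line wild types (medians -0.40 and -0.14). For some the second margin was small: Rorb had 6.65 FPKM against 9.71 and 6.75 FPKM, Cux2 24.8 FPKM against 32.8 and 26.3 FPKM, and Unc5d 10.5 FPKM against 14.9 and 11.4 FPKM. Pou3f1, a POU-domain factor, had 13.9 FPKM against 20.7 and 19.5 FPKM, and Pou3f2 (Brn2), which drives upper-layer fates, had 32.8 FPKM against 58.8 and 38.9 FPKM. Among intermediate progenitor genes 3 of 15 fell, Eomes (27.2 FPKM against 40.4 and 37.1), Insm1 (32.6 FPKM against 47.0 and 41.0) and Mfap4 (10.1 FPKM against 16.3 and 20.2). Of 28 cell cycle genes none was called. An unadjusted p under 0.05 in the authors' deposited table was held by 7 of these 28, against 1196 of the 12359 tested rows.

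Pou3f2 is one of 5 genes called lower (with Cbs, Fam160a1, Gucy1a3 and Podn) whose RefSeq promoter window (GRCm38.p6) holds the shorter, 13-letter form of the NFI motif (TTGGC and GCC, 5 bases apart). Its 250 bases before the gene start are shown beside those of Fam160a1, which holds the whole palindrome. These 5 genes were chosen after their values were seen. Letters in capitals are the match. For Fam160a1 the palindrome lies on chromosome 3 of GRCm38.p6, minus strand, in chr3:85746210-85746459:
Fam160a1: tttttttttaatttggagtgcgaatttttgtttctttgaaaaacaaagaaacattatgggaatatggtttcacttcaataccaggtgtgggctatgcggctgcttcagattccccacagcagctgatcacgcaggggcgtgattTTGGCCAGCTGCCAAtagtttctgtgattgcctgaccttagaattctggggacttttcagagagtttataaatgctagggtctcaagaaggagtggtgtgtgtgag
and for Pou3f2 the shorter form on the opposite strand lies in chr4:22488367-22488616, minus strand:
Pou3f2: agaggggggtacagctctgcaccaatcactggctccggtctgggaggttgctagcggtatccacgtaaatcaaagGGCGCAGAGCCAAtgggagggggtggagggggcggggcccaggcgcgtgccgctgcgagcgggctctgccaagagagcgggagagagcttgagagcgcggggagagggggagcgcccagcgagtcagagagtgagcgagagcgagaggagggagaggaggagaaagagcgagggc
Fam160a1 fell, with 0.737 FPKM in the labelled knockouts against 1.62 and 1.25 FPKM. The palindrome (TTGGC and GCCAA, 5 bases apart) occurs in 12 of 32851 RefSeq windows of 300 bases (0.0365%) and the 13-letter form, part of that palindrome, in 453 windows (1.38%), on either strand. Only 74.1% of called genes matched a window, under the 80% needed, so the share among called genes is void. Counted over genes that have a window, the 13-letter form was held by 5 of 251 called higher and 5 of 103 called lower. These counts are of genes and those above are of windows, so they are not compared. A match is a description and not a binding site.

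Of 19 radial glia genes, 2 fell. Tnc, tenascin-C, a matrix protein of radial glia, had 11.5 FPKM against 25.2 and 37.8 FPKM (difference -1.12, implied error at most 0.28), and Mfge8 had 13.9 FPKM against 25.0 and 39.3 FPKM. Bcan, the proteoglycan brevican that glial cells secrete, fell to 2.41 FPKM in the labelled knockouts, against 4.57 and 9.39 FPKM. These 3 genes had the highest value in the Nfib-line wild types. Of 22 FGF genes 2 rose and 3 fell: Fgf15 had 1.35 FPKM against 0.296 and 0.603 FPKM, and Dusp6, an FGF feedback target, 12.3 FPKM against 17.4 and 15.6 FPKM. Both rises, Fgf15 and Fgf9, passed through the labelled knockouts alone, and Fgfr4, one of those that fell, through the wild types alone. Notch, Wnt and Hedgehog lists had 1 higher, 1 lower and no call among 18, 22 and 9 genes. The shares called were 5.56%, 4.55% and 0%, near the 3.87% over all rows for lists of this size. In guidance, Nrp1 fell (19.9 FPKM against 31.6 and 42.2) and Nrp2 rose (29.9 FPKM against 16.8 and 26.7); both are receptors for class 3 semaphorins.

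Of 17 deep-layer genes, 1 rose and 2 fell (median -0.02). Pcp4, a calmodulin-binding protein of deep-layer and striatal neurons, had 100.4 FPKM against 50.8 and 63.7 FPKM. Tle4, a corepressor of corticothalamic neurons, fell with 24.8 FPKM against 37.0 and 34.0 FPKM. The layer 5 factor Bcl11b had 72.2 FPKM against 69.8 and 52.9 FPKM and was not called. In the subplate list 2 of 11 rose and 1 fell, Moxd1 (1.17 FPKM against 0.582 and 0.658) and Tmem163 (6.46 FPKM against 4.01 and 5.25) being higher and Hs3st4 (27.1 FPKM against 36.4 and 32.9) lower. Moxd1 passed through the labelled knockouts alone.

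Cajal-Retzius cells are early neurons of the marginal zone that secrete reelin. Of 11 of their genes, 4 rose and none fell, and all 4 were above the Nfib-line wild types too. The other 7 were not called. Among these, Reln, the gene of reelin, had 53.7 FPKM against 54.0 and 49.5 FPKM, and Trp73 had 5.71 FPKM against 5.19 and 6.04 FPKM. Beside Ebf2, Barhl2 had 3.60 FPKM against 1.72 and 2.82 FPKM, Calb2 (calretinin) had 12.1 FPKM against 6.64 and 11.1 FPKM, and Cacna2d2 had 12.7 FPKM against 8.58 and 10.4 FPKM. Calb2 is also made by interneurons, and Ebf2 passed through the labelled knockouts alone, as did Lhx9. Lhx9, a factor of the thalamus and cortical hem, rose against its own wild types, with 1.59 FPKM against 0.523 FPKM, and was below the 3.50 FPKM of the Nfib-line wild types.

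In adhesion, 3 of 15 classical cadherins rose and none fell. Cdhr1, a cadherin-related gene of olfactory bulb mitral cells, had 2.51 FPKM against 0.972 and 0.816 FPKM. Among 17 non-clustered protocadherins and related genes, 3 rose and 1 fell; Pcdh11x, on the X chromosome, had 5.32 FPKM against 2.23 and 2.72 FPKM, and Celsr1, of planar polarity, fell with 10.4 FPKM against 15.4 and 14.3 FPKM. Of 32 Eph, Slit, Robo and netrin genes, 2 rose and 3 fell. Ntn1, the netrin that guides commissural axons, had 5.67 FPKM against 2.34 and 2.91 FPKM. Robo1, a Slit receptor, fell against its own wild types, 55.3 FPKM against 74.0 FPKM, and was above the Nfib-line wild types at 47.1 FPKM. Cdhr1, Pcdh15 of the protocadherins and Slit3 of the Slit genes passed through the labelled knockouts alone.

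Of 16 astrocyte genes 1 rose and 1 fell: Slc1a2, the glutamate transporter GLT-1, had 11.1 FPKM against 7.12 and 10.2 FPKM, and Bcan was the one that fell; that is 12.5% of the list called, against 3.87% of all rows. The astrocyte list had a median of 0.06 against the Nfia-line and -0.39 against the Nfib-line wild types. Of 14 oligodendrocyte lineage genes 2 rose, Lhfpl3 (9.22 FPKM against 4.75 and 4.47) and Pcdh15 (1.62 FPKM against 0.850 and 0.957), while Pdgfra was not called at 3.70 FPKM against 4.08 and 5.10 FPKM. The share called was 14.3%, with Pcdh15 passing through the labelled knockouts alone. Of 14 collagen genes 1 rose and 2 fell, with Col12a1 at 1.09 FPKM against 2.098 and 3.22 FPKM.

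Among 19 imprinted genes 2 rose and none fell. Magel2 had 4.22 FPKM against 1.72 and 3.08 FPKM, and Peg10 had 11.0 FPKM against 6.58 and 7.59 FPKM. Activity-induced genes gave 1 rise and 1 fall among 14: Npas4 had 1.4995 FPKM against 0.590 and 1.28 FPKM, and Nr4a3 had 5.55 FPKM against 8.69 and 14.4 FPKM. Npas4 passed through the labelled knockouts alone. The calcium kinase gene Camk2a, which rises with neuronal maturation, had 17.8 FPKM against 8.88 and 12.3 FPKM, and Nrgn, neurogranin, had 38.5 FPKM against 16.1 and 30.6 FPKM.

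**Figure D5:**
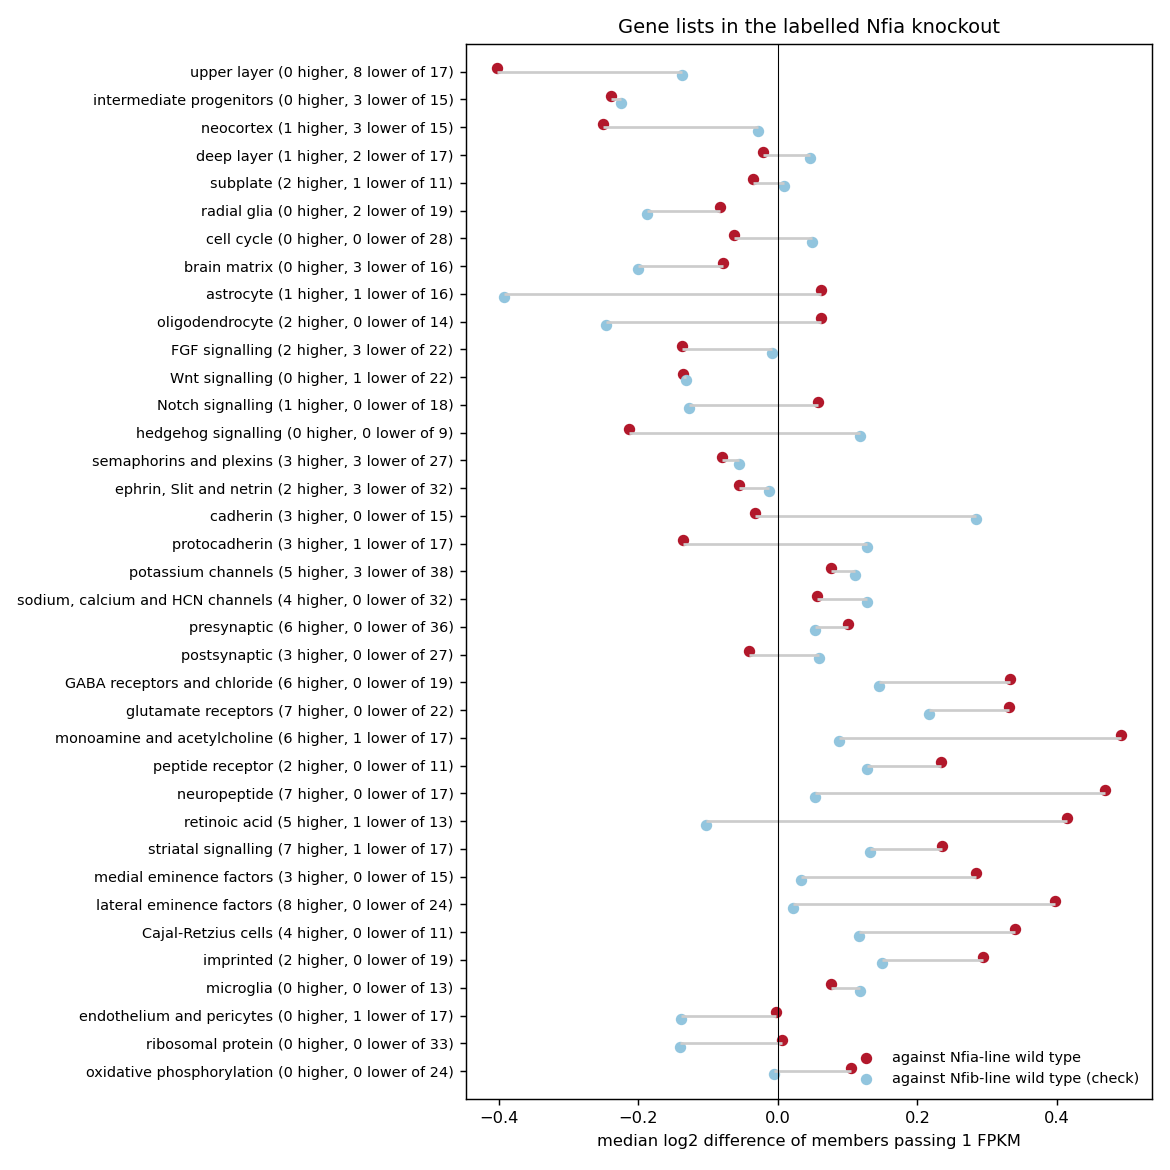
Median log2 difference of the passing members of 37 gene lists against the Nfia-line wild types (red) and the Nfib-line wild types (light blue), with the counts called higher and lower beside each name. Upper-layer genes lie lowest at -0.40 and the monoamine and neuropeptide lists highest at 0.49 and 0.47; both of these lie nearer 0 against the Nfib-line wild types, and the monoamine median is -0.18 over members at 5 FPKM or more.

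Lists of neighbouring brain regions held calls. Of 18 hypothalamus and preoptic genes only Fezf1, Lhx8 and Nkx2-1 reached 1 FPKM, each through the labelled knockouts alone; all 3 were called higher and lay above the Nfib-line wild types too. Of 12 septum and olfactory bulb genes, 4 rose (Nts, Cdhr1, Zic4 and Six3, of which Zic4 and Cdhr1 passed through the labelled knockouts alone) and 2 fell (Lhx2 and Eomes). Zic4, a septal factor, had 1.495 FPKM against 0.637 and 0.651 FPKM. Lhx2, a selector of cortical identity, had 48.1 FPKM against 75.0 and 86.3 FPKM. Of 2 passing pigment cell genes 1 fell, Dct, with 0.563 FPKM against 2.295 and 1.07 FPKM, passing through the wild types alone.

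None of 33 ribosomal protein, 24 respiratory chain, 23 cholesterol and lipid, 21 glycolysis or 16 heat shock genes passed the test. In the same order, 0, 2, 2, 4 and 0 of them had an unadjusted p under 0.05 in the authors' deposited table, against 1196 of the 12359 tested rows. Of the ribosomal protein genes, Rpl32 had 1133 FPKM against 1143 and 1258 FPKM. Differences in that list ran from -1.32 (Rps27) to 0.24 (Rpl35), with a median of 0.0059. Of 13 microglia genes none was called and none had such a p, and of 17 endothelial genes 1 fell (5.88%, against 3.87% called over all rows). Markers of choroid plexus gave 1 call of 3, Ttr, at 1.41 FPKM against 0.425 and 0.346 FPKM, which passed through the labelled knockouts alone.

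Called genes overlapped those of the Nfib knockout, a comparison that shares no libraries with this one. Sex-linked genes differed there too. Xist had 86.0 FPKM in the Nfib knockouts against 0.207 FPKM in the Nfib-line wild types, and Eif2s3y had 14.7 against 34.1 FPKM. The Y-linked Ddx3y, Eif2s3y and Kdm5d were called higher here and lower there. How embryo sex bears on the overlap was not tested. Of the 332 genes called higher, 20 (6.02%) were higher and 92 (27.7%) were lower in the Nfib knockout, against 280 higher (2.25%) and 403 lower (3.24%) of all rows tested there. Of the 146 called lower, 8 (5.48%) were higher and 49 (33.6%) lower. Read the other way, 22.8% of the genes lower in the Nfib knockout were called higher here and 12.2% called lower.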

How the data were processed

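Neocortex RNA was extracted with Trizol and a TruSeq RNA kit was used for the libraries, per the labels' protocols. Per the submitters' processing notes, the genome build was mm9 and the tools were Cuffdiff 2.1.1, Cufflinks (no version), TopHat2 2.0.10 and CASAVA 1.8.2. How strand was handled is not stated, and genes that overlap or lie antisense are uncertain. The authors deposited 1 FPKM value per gene and group, per the file headers. They also deposited a log2 fold, its p-value and its q-value, per the file headers; these q-values lie within 7.32e-05 of Benjamini-Hochberg adjustment of p-values under 1.

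Without values per library the planned limma fit was not possible, and its stated fallback, the deposited q at 0.05, was used. Rows at 1 FPKM or more in either column were kept. Differences used a pseudocount of 0.1. The arithmetic of the scripts was checked on a simulated table. The members and the 60 gene lists were chosen with earlier results of these data known. Named genes were the NFI genes, the 15 largest called rises and falls, up to 5 called members per list (or 2 as values), marker and sex-linked genes, Rn45s and Lars2; the text names a part of these. Lists hold 1101 distinct genes, 7 of them not matched by symbol. The tools were matplotlib 3.10.9, scipy 1.17.1, pandas 2.3.3 and numpy 2.4.6 under Python 3.11.15. RefSeq promoter windows are of another build, and were matched by symbol for 79.2% of passing rows. Alternatives were other thresholds, filters, pseudocounts, centring and wild types. A few genes that the naming rule takes are not reported here.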

Additional observations from a re-analysis of the deposited data

How the results depend on the processing

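Counts of calls moved with the threshold: 307 genes (221 higher, 86 lower) at a q of 0.01, 287 genes (176 higher) at 5 FPKM or more, and 116 (97 higher, 19 lower) with a 2-fold change. Without the sex chromosomes 455 genes were called. The direction check was met by 250 of the 287 genes at 5 FPKM, and by 425 of the 478 genes in the main setting. Against the Nfib-line wild types these called genes turned: Lhx9 to -1.09 (-0.32 against the mean of both wild-type groups), Kdm5d -0.84, Eif2s3y -0.75, Ddx3y -0.65, Nr2f2 -0.62, Slit3 -0.56, Nefl -0.31, Cyp26b1 -0.30, Pnoc -0.25, Six3 -0.20, Crabp1 -0.11, Penk -0.071, Rxrg -0.069, Dlx5 -0.068, Gdf10 -0.014, Plxna4 0.23, Robo1 0.23 and Xist 7.97; the cause was not tested. Of list medians of 0.2 or more in size, those that turned against them were sex-linked (-0.65), thalamus (-0.32, and -0.14 against the mean), retinoic acid (-0.10), choroid plexus (-0.018), septum and olfactory bulb (-0.018), hedgehog (0.12) and X-escape genes (0.29). At 5 FPKM such medians turned for monoamine and acetylcholine receptors (-0.18), septum and olfactory bulb (-0.084), peptide receptors (-0.076, and -0.022 at a mean of 1 FPKM) and pigment cell genes (0.17). No called gene named here and no such median turned under another pseudocount or under centring. No paired analysis was possible because the table holds no value per library, and leaving out each library in turn was not run for the same reason. Depth is unknown.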

Other observations

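Nfia lies on chromosome 4, by gene name in the RefSeq annotation. On that chromosome 14 of 787 passing rows were called higher (1.78%, against 2.69% over all rows) and 16 lower (2.03%, against 1.18%), and all 16 lower genes were also below the Nfib-line wild types. Of these 16 lower genes, 12 lie before Nfia, as do 285 of the 787 passing rows of the chromosome. Among the 40 passing neighbours, 20 on each side of Nfia, 3 were called higher, Slc24a2, Itgb3bp and Cachd1. That is 3 of 40, where the share called higher over all rows was 2.69%. None of the 40 was called lower by the q of the authors' deposited table.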
